A study of Mus musculus with 18 samples.

Results

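Type IV collagen is the sheet-forming collagen of basement membranes, and its 6 chains are encoded by Col4a1 to Col4a6. The genes were taken by symbol from the deposited table of kidney RNA sequencing, where each of the 6 symbols had 1 row among 22063 genes, and all 6 passed the filter on low counts that left 14774 genes. Kidneys from wild-type (WT) mice were compared with kidneys from mice carrying a knockout of Ecm1 (KO), the gene of a secreted extracellular matrix protein, at 1, 2 and 4 weeks of age, with 3 libraries in each of 6 groups. The groups were therefore WT at 1, 2 and 4 weeks and Ecm1 KO at 1, 2 and 4 weeks, with no treatment named. The sources used here give neither strain nor sex, nor the part of Ecm1 that was targeted, nor whether the knockout was confined to a cell type. Separate animals are not stated for the libraries of a group. P-values therefore cover the spread among these libraries alone, and some of that spread may be technical.

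The chains wind into trimers of fixed make-up, and the trimers join into networks. The alpha1/alpha2 network, from Col4a1 and Col4a2, is the general form of basement membranes and of the mesangial matrix. The alpha3/alpha4/alpha5 network, from Col4a3, Col4a4 and Col4a5, replaces it in the glomerular filter as the glomerulus matures, is made there by podocytes, and is also found around some tubules. Its loss causes Alport syndrome. The alpha5/alpha6 network, from Col4a5 and Col4a6, is found in Bowman's capsule and in some tubular basement membranes. Col4a5 thus serves both of the later networks. The comparisons ask how the balance of the networks shifts over the weeks after birth and whether it differs without Ecm1.

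The 6 genes lie in 3 head-to-head pairs, each pair transcribed outward from a shared start region, and the pairs are shown here because the members of a pair moved together in the data below. In the GENCODE M21 annotation of GRCm38, Col4a1 (ENSMUSG00000031502, chr8:11198423-11312826, minus strand, 52 exons) and Col4a2 (ENSMUSG00000031503, chr8:11312805-11449287, plus strand, 48 exons) overlap by 22 bases at their starts. Col4a4 (ENSMUSG00000067158, chr1:82448423-82586849, minus strand, 48 exons) and Col4a3 (ENSMUSG00000079465, chr1:82586921-82722059, plus strand, 52 exons) have 71 bases between their starts. Col4a6 (ENSMUSG00000031273, chrX:141165403-141474076, minus strand, 45 exons) and Col4a5 (ENSMUSG00000031274, chrX:141475385-141689234, plus strand, 53 exons) have 1308 bases between them. Exon numbers are those of the principal transcript. Antisense genes overlap Col4a1 (Gm15418) and Col4a2 (Gm15419), and C430014B12Rik on the opposite strand overlaps Col4a3. Strand-specific library preparation is not stated in the sources used here, and reads from a chain and its antisense partner cannot then be told apart.

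RefSeq's table of promoter windows for GRCm38.p6, 250 bases before to 50 bases after a start, holds 5 of the 6 genes, and Col4a3 is named only. Col4a4, Col4a5 and Col4a6 had bases before the first exon of the M21 annotation, and these bases are printed 5′ to 3′ on the strand of the named gene, with capitals for each match to a CCAAT box or a GC box. The Col4a4 stretch (chr1:82586850-82586920, minus strand) is the whole interval between Col4a4 and Col4a3. The Col4a5 stretch is chrX:141475169-141475384 on the plus strand, and the Col4a6 stretch is chrX:141474077-141474326 on the minus strand.
Col4a4: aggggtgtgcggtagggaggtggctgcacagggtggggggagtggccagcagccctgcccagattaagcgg
Col4a5: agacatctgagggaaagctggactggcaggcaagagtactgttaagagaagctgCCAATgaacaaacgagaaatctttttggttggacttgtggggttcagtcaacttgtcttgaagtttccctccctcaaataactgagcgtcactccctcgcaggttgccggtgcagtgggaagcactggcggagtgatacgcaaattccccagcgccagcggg
Col4a6: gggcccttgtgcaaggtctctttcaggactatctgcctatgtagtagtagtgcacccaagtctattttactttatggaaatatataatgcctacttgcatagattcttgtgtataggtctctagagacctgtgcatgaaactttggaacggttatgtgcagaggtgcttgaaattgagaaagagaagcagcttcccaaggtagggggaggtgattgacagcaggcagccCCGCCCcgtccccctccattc
The Col4a4 stretch is 69.0% G and C, against 52.3% in the Col4a5 stretch and 47.6% in the Col4a6 stretch. In the whole windows, searched on both strands, CCAAT occurred 1 time each in those of Col4a1, Col4a2 and Col4a5, and in 37.4% of all 32851 windows. GGGCGG occurred 1 time each in those of Col4a1, Col4a5 and Col4a6, 3 times in that of Col4a2, and in 35.7% of all windows. The Col4a4 window held neither motif. TATAAA and TAATTA occurred in none of the 5 windows, and in 13.6% and 5.29% of all windows. A match is a description of letters and no measure of binding.

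Total counts per library ran from 14930565 to 21427764. Type IV collagen genes took 0.673% to 0.807% of the counts of a library at 1 week, 0.430% to 0.570% at 2 weeks and 0.180% to 0.229% at 4 weeks. Ecm1 had 0 to 2 counts in the KO libraries and 301 to 1315 in the WT libraries, so no library went against its genotype label. By Y-linked counts the female libraries were 2 of WT and all 3 of KO at 1 week, WT replicate 1 at 2 weeks and KO replicate 3 at 4 weeks. At 2 weeks the replicates numbered 1 stood apart in both genotypes, at -50.7 and -49.7 on the second principal component against -24.1 to -10.2 in the other libraries of that age, and values without these libraries stand beside the results they move. At 1 week WT replicate 3 stood apart in 16 markers of tissue outside the kidney, with a mean log2(CPM + 1) of 4.64 against 1.49 to 2.49 in the other 17 libraries and 2 markers at 0; the adrenal gene Cyp21a1 was at 57.7 CPM there and at 0 and 0.0486 in the other WT libraries of that age. Without that library the calls of the 6 chains in the comparisons with WT at 1 week were the same. Values are CPM (counts scaled to a common library size, with TMM factors between libraries) where 1 gene is followed over groups, and FPKM, which is per length, where genes are set against each other. Kidney is bulk tissue, so fewer cells of a type and less RNA per cell cannot be told apart.

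Col4a1 and Col4a2 fell at both steps of age in both genotypes, and Col4a1 had the highest mean FPKM of the 6 in every group. Col4a1 stood at 3150, 3789 and 3284 CPM in the WT libraries at 1 week, at 2056, 1720 and 2081 at 2 weeks, and at 677, 706 and 762 at 4 weeks. In KO it stood at 2935, 3123 and 3082 CPM, then 2172, 2062 and 1866, then 630, 934 and 765. The 3 ages did not overlap in either genotype. From 1 to 2 weeks the libraries of 41.7% of all genes tested did not overlap in WT and 38.3% in KO, and from 2 to 4 weeks 55% and 43.3%. By edgeR's quasi-likelihood test with Benjamini-Hochberg adjustment over all genes, Col4a1 changed by -2.25 ± 0.14 (log2 fold change ± SE, adjusted p = 3.09e-09) from 1 to 4 weeks in WT and by -1.97 ± 0.14 (adjusted p = 1.77e-08) in KO.

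Col4a2, the partner of Col4a1 in the trimer, went from 1860 ± 206 CPM (SD, n = 3) in WT at 1 week to 1244 ± 140 at 2 weeks and 435 ± 19.4 at 4 weeks. In KO it went from 1687 ± 54.9 to 1259 ± 98.2 and 494 ± 101. Its change from 1 to 4 weeks was -2.10 ± 0.14 in WT and -1.77 ± 0.14 in KO. On the log2 scale both genes changed more from 2 to 4 weeks in WT (-1.45 and -1.52 for Col4a1 and Col4a2) than from 1 to 2 weeks (-0.80 and -0.58). The later step also spans more weeks. In mean CPM, Col4a1 in WT went from 3408 at 1 week to 1952 at 2 weeks and 715 at 4 weeks. By CPM in WT the earlier step was thus the larger for Col4a1, and the later step for Col4a2. The fall of Col4a2 from 1 to 2 weeks in KO (-0.42 ± 0.14, adjusted p = 0.0388) was lost without any 1 of the KO libraries of 1 week (adjusted p = 0.0659, 0.102 and 0.109) or without KO replicate 2 or 3 of 2 weeks (0.131 and 0.0910), and with sex as a covariate (0.108).

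**Figure D1:**
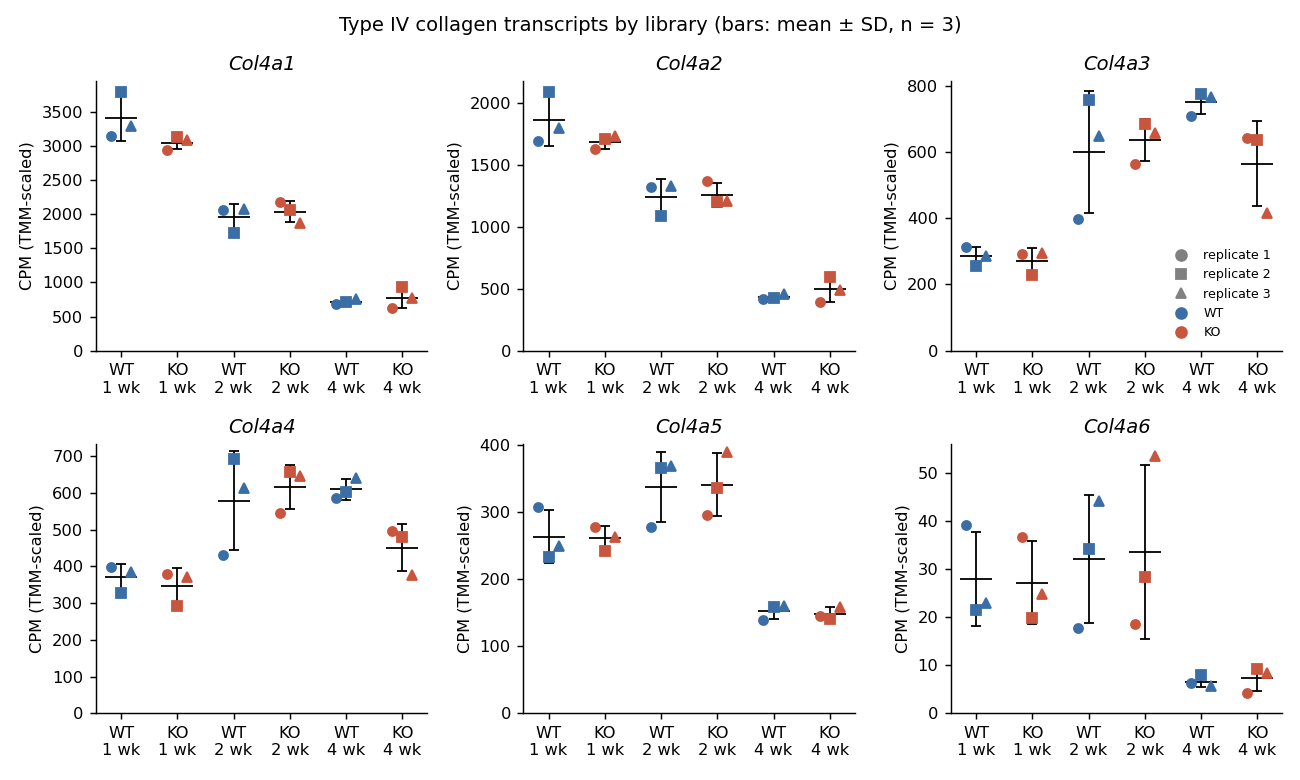
CPM of each type IV collagen gene (y axis, linear, from 0) in each library by genotype and age (x axis); points are libraries, shaped by replicate number, and bars are the mean ± SD of 3. Col4a1 and Col4a2 step down at each age, and Col4a5 and Col4a6 are lowest at 4 weeks. Col4a3 and, by group means, Col4a4 are higher at 2 and 4 weeks than at 1 week. The KO libraries of Col4a4 at 1 and 4 weeks overlap.

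Col4a3 and Col4a4, which are found in the alpha3/alpha4/alpha5 network alone, rose between 1 and 2 weeks in both genotypes. Col4a3 stood at 312, 255 and 286 CPM in WT at 1 week, at 398, 756 and 647 at 2 weeks, and at 708, 775 and 766 at 4 weeks. In KO it stood at 293, 227 and 294, then 564, 686 and 656, then 641, 637 and 416 CPM. The libraries of 1 week lay below all later ones, and WT replicate 1 was lowest of its group at 2 weeks, as KO replicate 1 was of its own. Col4a3 rose by 1.08 ± 0.20 in WT (adjusted p = 0.00139) and by 1.23 ± 0.20 in KO (adjusted p = 0.000746) from 1 to 2 weeks.

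Col4a4 stood at 398, 328 and 384 CPM in WT at 1 week, at 430, 692 and 612 at 2 weeks, and at 586, 602 and 641 at 4 weeks. In KO it stood at 380, 292 and 371, then 547, 657 and 645, then 496, 479 and 377 CPM. The 3 KO libraries of 4 weeks thus lay below all 3 of 2 weeks, and the highest of 1 week lay above the lowest of 4 weeks. Col4a4 rose by 0.64 ± 0.16 in WT (adjusted p = 0.00871) and by 0.83 ± 0.16 in KO (adjusted p = 0.00237) from 1 to 2 weeks. The KO libraries of 1 week were all female and those of 2 weeks all male, so age and sex cannot be told apart within that step, and with a sex term taken from the other groups the KO rise was 0.58 (adjusted p = 0.0807). From 2 to 4 weeks it fell in KO by 0.45 ± 0.16 (adjusted p = 0.0372) and was not called in WT (0.08 ± 0.16, adjusted p = 0.716). That fall was lost without KO replicate 2 or 3 of 2 weeks (adjusted p = 0.101 and 0.0976), without KO replicate 3 of 4 weeks (0.146), and with sex as a covariate (0.0715).

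How far Col4a3 and Col4a4 rose depends on how libraries of different age are scaled. Over all genes the median change from 1 to 4 weeks in WT was -0.04 with TMM and -0.75 with scaling by library totals alone, and the genes called higher and lower numbered 4503 and 4695 with the first and 1742 and 9345 with the second. In KO the medians were -0.03 and -0.62. Col4a3 changed by 1.40 ± 0.21 in WT and 1.06 ± 0.20 in KO from 1 to 4 weeks with TMM, and with library totals by 0.68 in WT (adjusted p = 0.0109) and 0.46 in KO (adjusted p = 0.0763). From 2 to 4 weeks Col4a3 was not called with TMM, at 0.32 ± 0.20 in WT and -0.17 ± 0.20 in KO, and in KO it was called with library totals (-0.56, adjusted p = 0.0446). Col4a4 changed by 0.72 ± 0.16 in WT with TMM (adjusted p = 0.00103) and by 0.00 with library totals (adjusted p = 0.982), and in KO by 0.37 ± 0.16 (adjusted p = 0.0578) and -0.23 (adjusted p = 0.275). The rise of Col4a4 from 1 to 2 weeks in WT also lost its call with library totals (0.42, adjusted p = 0.0941). In FPKM as deposited, Col4a4 stood at 45.0 ± 5.42 in WT at 1 week, 60.3 ± 17.1 at 2 weeks and 45.2 ± 1.41 at 4 weeks, and Col4a3 at 40.9 ± 5.01, 74.2 ± 26.1 and 65.6 ± 2.12.

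Col4a5, shared by the alpha3/alpha4/alpha5 and alpha5/alpha6 networks, fell from 2 to 4 weeks in both genotypes. It stood at 307, 233 and 250 CPM in WT at 1 week, at 277, 366 and 368 at 2 weeks, and at 139, 159 and 159 at 4 weeks. In KO it stood at 277, 242 and 263, then 296, 337 and 389, then 145, 141 and 159 CPM. The libraries of 4 weeks lay below all earlier ones. Its change from 2 to 4 weeks was -1.15 ± 0.14 in WT (adjusted p = 6.82e-06) and -1.20 ± 0.14 in KO (adjusted p = 9.63e-06). From 1 to 2 weeks it was not called, at 0.36 ± 0.13 in WT (adjusted p = 0.0644) and 0.39 ± 0.13 in KO (adjusted p = 0.0541). Without both replicates numbered 1 of 2 weeks it was called in both (0.48 in each, adjusted p = 0.0103 and 0.0120). With the replicate number as a block it was called in both as well (adjusted p = 0.00871 and 0.00736). The numbers were, however, not taken to pair the libraries of 1 week.

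Col4a6, found in the alpha5/alpha6 network alone, had the lowest mean FPKM of the 6 and the largest SD relative to its mean CPM in every group. It stood at 39.2, 21.6 and 23.0 CPM in WT at 1 week, at 17.9, 34.3 and 44.2 at 2 weeks, and at 6.38, 7.90 and 5.63 at 4 weeks. In KO it stood at 36.8, 19.9 and 24.9, then 18.6, 28.5 and 53.7, then 4.27, 9.31 and 8.31 CPM. The replicates numbered 1 were highest at 1 week and lowest at 2 weeks in both genotypes, and the libraries of 4 weeks lay below all others. From 2 to 4 weeks Col4a6 changed by -2.27 ± 0.43 in WT (adjusted p = 0.000433) and -2.21 ± 0.42 in KO (adjusted p = 0.000817). From 1 to 2 weeks it was not called, at 0.20 ± 0.39 in WT and 0.30 ± 0.39 in KO.

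Counted over the 6 chains, 4 were called from 1 to 2 weeks in WT, where 23.6% of all genes tested were called: 2 rose (12.5% of all genes rose) and 2 fell (11.1% fell). In KO 2 rose and 2 fell at that step, where 19.5% of all genes were called, 10.3% higher and 9.16% lower. From 2 to 4 weeks 0 rose and 4 fell in WT, where 48.3% of all genes were called, 23.5% higher and 24.8% lower, and 0 rose and 5 fell in KO, where 36.9% were called, 18.2% higher and 18.7% lower. From 1 to 4 weeks 2 rose and 4 fell in WT, where 62.3% were called, 30.5% higher and 31.8% lower, and 1 rose and 4 fell in KO, where 57.1% were called, 28.4% higher and 28.7% lower. With sex as a covariate the count from 1 to 2 weeks in KO was 2 in place of 4, as Col4a2 (adjusted p = 0.108) and Col4a4 (adjusted p = 0.0807) were not called. The chains of a pair varied together beyond age and genotype: over the 18 libraries the deviations of log2 CPM from the group means had a Pearson r of 0.97 for Col4a1 with Col4a2, 0.97 for Col4a3 with Col4a4 and 0.81 for Col4a5 with Col4a6. Across pairs it ran from -0.42 for Col4a2 with Col4a4 to 0.64 for Col4a4 with Col4a5. These are descriptions, and the libraries share their scaling. The deviations include the 2-week libraries numbered 1, which were lowest of their groups for Col4a3, Col4a4, Col4a5 and Col4a6 in both genotypes. The r without those libraries was not computed.

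Per length, the collagen transcript pool moved from one made up mainly of Col4a1 and Col4a2 toward Col4a3 and Col4a4. Col4a1 made up 61.2% ± 1.70 of the summed type IV collagen FPKM in WT at 1 week, 49.3% ± 3.68 at 2 weeks and 37.7% ± 0.445 at 4 weeks. Col4a3 went from 3.19% ± 0.544 to 9.33% ± 2.98 and 22.5% ± 0.285, and Col4a4 from 3.51% ± 0.580 to 7.61% ± 1.86 and 15.5% ± 0.431. In KO at 4 weeks Col4a1 made up 41.5% ± 3.58, Col4a3 18.1% ± 3.76 and Col4a4 12.3% ± 1.96. Col4a6 made up 0.257% to 0.650% in every group by its mean. By mean FPKM in WT at 1 week the order was Col4a1 (788 ± 55.9), Col4a2 (354 ± 31.8), Col4a5 (54.7 ± 9.31), Col4a4 (45.0 ± 5.42), Col4a3 (40.9 ± 5.01) and Col4a6 (5.19 ± 1.93). Col4a4 there overlapped with Col4a5 above it and Col4a3 below it, the ranges of Col4a5, Col4a4 and Col4a3 being 47.1 to 65.1, 39.0 to 49.5 and 35.8 to 45.9 FPKM. At 4 weeks in WT the order was Col4a1 (110 ± 4.01), Col4a3 (65.6 ± 2.12), Col4a2 (50.5 ± 1.48), Col4a4 (45.2 ± 1.41), Col4a5 (19.1 ± 1.14) and Col4a6 (0.748 ± 0.131), with no overlap between neighbours. The length behind the FPKM of Col4a1 varied between 4657 and 5743 bases over the libraries and that of Col4a5 between 5738 and 6064, against 6615 and 6536 bases of their principal transcripts, whereas those of Col4a2, Col4a3 and Col4a4 did not vary.

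**Figure D2:**
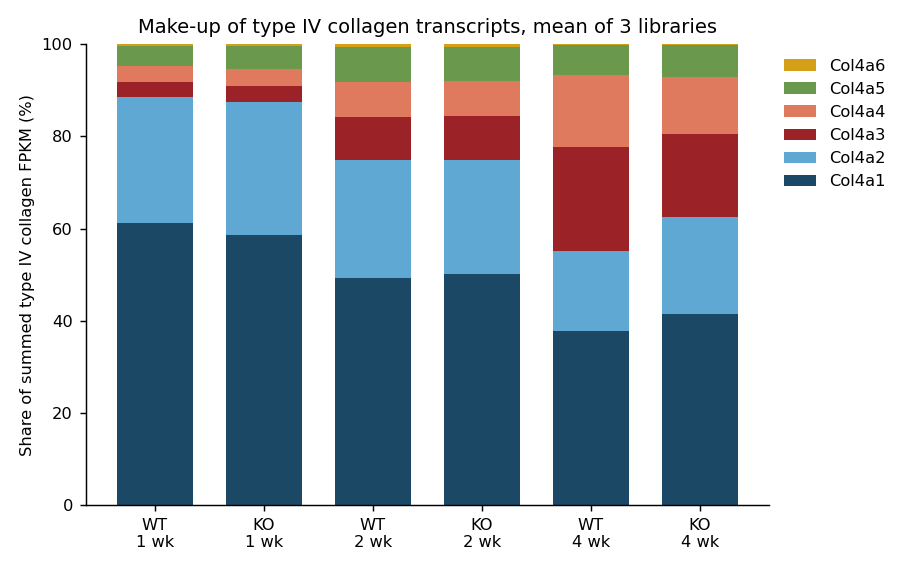
Share of each chain in the summed type IV collagen FPKM (y axis, percent) by group (x axis), mean of 3 libraries. The Col4a1 share falls from 61.2% to 37.7% in WT over the 3 ages and the Col4a3 share rises from 3.19% to 22.5%.

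The balance of the networks was measured within each library as the log2 ratio of FPKM (geometric means of the chains of a pair), which needs no scaling between libraries. The ratio of Col4a3 and Col4a4 to Col4a1 and Col4a2 stood at -3.36, -3.93 and -3.59 in WT at 1 week, at -2.65, -1.59 and -2.10 at 2 weeks, and at -0.45, -0.45 and -0.46 at 4 weeks. In KO it stood at -3.32, -3.77 and -3.43, then -2.31, -1.96 and -1.88, then -0.55, -1.18 and -1.26. The ages did not overlap in either genotype. As plain ratios at the group means, 0.0810 in WT at 1 week became 0.231 at 2 weeks and 0.731 at 4 weeks, and in KO 0.0880 became 0.242 and 0.502. With labels permuted within genotype, the ratio rose by 1.49 from 1 to 2 weeks, by 1.36 from 2 to 4 weeks and by 2.84 from 1 to 4 weeks, each with an exact two-sided permutation p of 0.005, the smallest this design allows (adjusted p = 0.00889 over 16 tests of 4 ratios). Without both 2-week libraries numbered 1 the steps were 1.69 and 1.16 (exact permutation p = 0.01, adjusted p = 0.016 for each). Sex was not part of these tests. The KO libraries were all female at 1 week and all male at 2 weeks, so age and sex cannot be told apart there. Female WT libraries also became fewer with age.

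The 3 other ratios followed Col4a5. Against Col4a1 and Col4a2 it rose by 0.91 from 1 to 2 weeks (exact permutation p = 0.005, adjusted p = 0.00889), and its difference of 0.23 from 2 to 4 weeks did not pass (exact permutation p = 0.145, adjusted p = 0.211). Without both 2-week libraries numbered 1 these were 1.04 (exact permutation p = 0.01, adjusted p = 0.016) and 0.09 (exact permutation p = 0.5, adjusted p = 0.615). Against Col4a3 and Col4a4, its partners in 1 network, it fell by 0.58 and then by 1.13 (exact permutation p = 0.005 and adjusted p = 0.00889 for each). The plain ratio in WT thus went from 1.27 at 1 week to 0.911 at 2 weeks and 0.351 at 4 weeks. Col4a6 against Col4a5 differed by -0.16 from 1 to 2 weeks (exact permutation p = 0.54, adjusted p = 0.617) and fell by 1.00 from 2 to 4 weeks (exact permutation p = 0.01, adjusted p = 0.016). The Col4a6 to Col4a5 ratio in WT was 0.0917 at 1 week, 0.0804 at 2 weeks and 0.0389 at 4 weeks. Sex was not part of the tests of these ratios either, and it changed along with age in KO from 1 to 2 weeks.

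**Figure D3:**
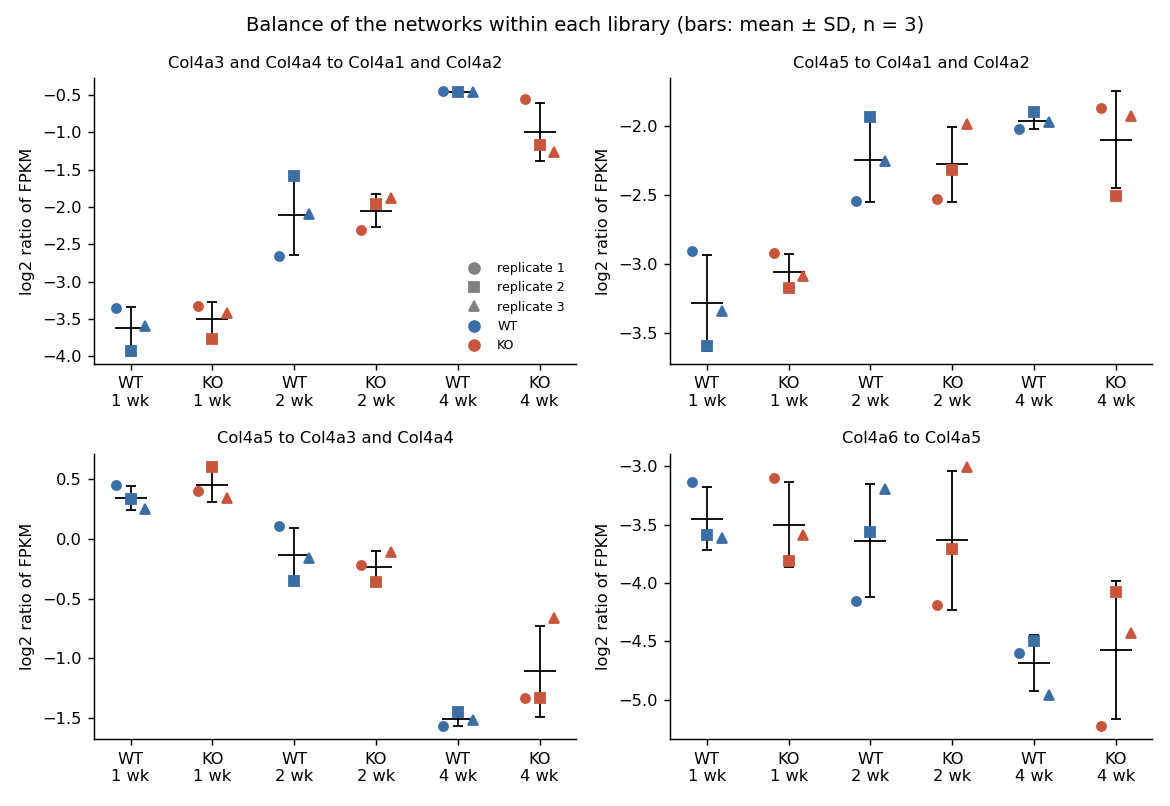
Log2 ratio of FPKM within each library (y axis, one panel for each of 4 ratios) by genotype and age (x axis); points are libraries and bars are the mean ± SD of 3. The ratio of Col4a3 and Col4a4 to Col4a1 and Col4a2 rises at both steps, and at 4 weeks the 3 KO libraries lie below the 3 WT libraries, which sit within -0.46 and -0.45.

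No chain was called between KO and WT kidneys by the edgeR test of 6 group means, which had no replicate block. At 1 and 2 weeks 0 of 6 chains were called, where 0.00677% of all genes were called at each age, with 0 at an unadjusted p under 0.05 and 0 by DESeq2 and limma. At 1 week the 3 KO libraries of Col4a1 lay below the 3 WT libraries (9.35% of all genes had no overlap between the groups there), with a log2 fold change of -0.16 ± 0.13 (adjusted p = 1). The chains had absolute log2 fold changes of at most 0.16 at 1 week and 0.09 at 2 weeks. The average over the 3 ages and the interaction of genotype with age called 0 of 6 as well, where 0.0338% and 0.142% of all genes were called, with 0 at an unadjusted p under 0.05 and 0 by DESeq2 and limma. In the interaction the smallest edgeR p was that of Col4a4, with adjusted p = 0.805.

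At 4 weeks 0 of 6 chains were called by edgeR without a replicate block, DESeq2 or limma, where edgeR called 3.23% of all genes. Col4a4 alone of the chains had an unadjusted p under 0.05 by edgeR, as did 17.1% of all genes. The edgeR fit with the replicate number as a block called Col4a4, with values in the section on processing. The numbers were not taken to pair the 4-week libraries. The groups of Col4a3 and of Col4a4 did not overlap, as was so for 20.9% of all genes, and both chains were lower in KO. The 477 genes called at that age became 89, 105, 139 and 223 without WT replicate 2, WT replicate 3, KO replicate 3 and KO replicate 2, 1201 without KO replicate 1, and 2 with only the 4-week libraries in the fit. Col4a4 had 496, 479 and 377 CPM in KO against 586, 602 and 641 in WT, a log2 fold change of -0.44 ± 0.16 (adjusted p = 0.158). Col4a3 had 641, 637 and 416 CPM in KO against 708, 775 and 766 in WT, a log2 fold change of -0.41 ± 0.20 (adjusted p = 0.321). KO replicate 3, the female library, was the lowest for both genes, and without it the log2 fold changes were -0.32 (adjusted p = 0.508) for Col4a4 and -0.23 (adjusted p = 0.760) for Col4a3. With sex as a covariate they were -0.36 (adjusted p = 0.286) and -0.29 (adjusted p = 0.504). The other 4 chains overlapped between the groups, with log2 fold changes of 0.12 ± 0.13 for Col4a1, 0.18 ± 0.14 for Col4a2, -0.04 ± 0.13 for Col4a5 and 0.13 ± 0.44 for Col4a6. KO replicate 2 held the highest Col4a1 and Col4a2 of the age, at 934 and 598 CPM. Scaling by library totals moved the median over all genes from 0.00 to 0.11, with Col4a4 at -0.33 and Col4a3 at -0.30.

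**Figure D4:**
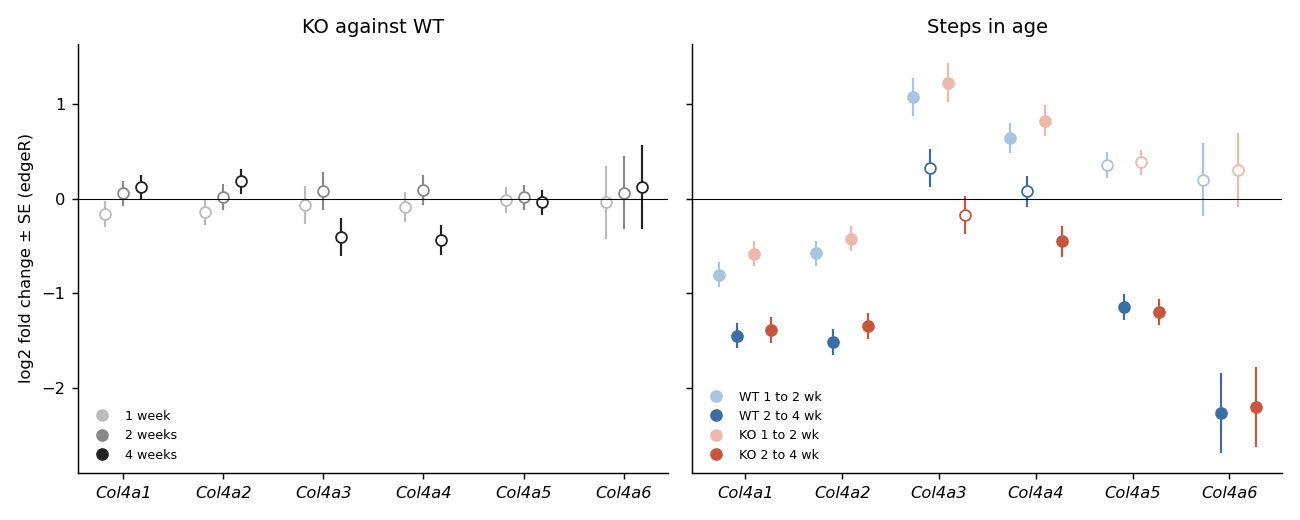
Log2 fold change ± SE from edgeR (y axis) of each chain (x axis) for KO against WT at each age (left) and for the steps in age within each genotype (right); filled points are called at an adjusted p under 0.05 and open points are not. No point is filled on the left; on the right Col4a1 and Col4a2 lie below 0 at each step and Col4a3 lies above 0 from 1 to 2 weeks. Steps are scaled by TMM.

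The ratio of Col4a3 and Col4a4 to Col4a1 and Col4a2 at 4 weeks was -0.45 ± 0.0025 in WT and -0.99 ± 0.39 in KO, a difference of -0.54 with no overlap between the groups. The exact two-sided permutation p of 0.1 is the smallest that 3 libraries against 3 allow. KO replicate 1, at -0.55, lay nearest to WT, and KO replicates 2 and 3 lay at -1.18 and -1.26. At 1 and 2 weeks the differences were 0.12 and 0.07, with overlap. Over the 3 ages together, with labels permuted within age, the difference was -0.12 (exact permutation p = 0.469, adjusted p = 0.577). Col4a5 against Col4a3 and Col4a4 was higher by 0.40 in KO at 4 weeks, again with no overlap. KO replicates 1 and 2 lay at -1.33 each and KO replicate 3, the female library, at -0.67, against -1.57 to -1.45 in WT. Over the ages the ratio was higher by 0.14 in KO (exact permutation p = 0.226, adjusted p = 0.301). Without KO replicate 3 of 4 weeks that difference was 0.06. For Col4a5 against Col4a1 and Col4a2 and for Col4a6 against Col4a5 the differences over the ages were 0.02 in each (exact permutation p = 0.889 and 0.924, adjusted p = 0.924 for both).

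Podocyte markers were lower at 4 weeks than at 1 week, and their summed level at 4 weeks was higher in KO than in WT. Of 20 markers 17 fell and 1 rose from 1 to 4 weeks in WT, with a median of -1.19 against -0.04 over all genes. In KO 11 fell and 1 rose, with a median of -0.58 against -0.03. Of all genes 31.8% fell and 30.5% rose in WT, and 28.7% fell and 28.4% rose in KO. From 2 to 4 weeks 15 markers fell and 0 rose in WT, whereas in KO 4 fell and 7 rose. At that step 24.8% of all genes fell and 23.5% rose in WT. In KO 18.7% fell and 18.2% rose, and the 4 of 20 markers that fell are near that share. The summed level of the markers went from 2213 to 2682 CPM at 1 week to 1008 to 1129 CPM at 4 weeks in WT. In KO it was 1374 to 1551 CPM at 2 weeks and 1530 to 1554 CPM at 4 weeks, above every WT library of that age, and 6 of the 20 rose and 0 fell against WT (1.51% of all genes rose and 1.72% fell), with a median of 0.55 against 0.00. Nphs1, the nephrin gene, whose protein spans the slit between podocyte feet, had 69.3 ± 2.80 CPM in KO and 41.6 ± 5.75 in WT (0.73 ± 0.17, adjusted p = 0.0286). The count of 6 was 0 with only the 4-week libraries in the fit, 3 with sex as a covariate and 1 to 8 when 1 library of that age was left out, with 1 each without WT replicate 2 or 3 and 8 without KO replicate 1. For Nphs1 the adjusted p was 0.0936 with only the 4-week libraries and 0.0562 with sex as a covariate, and it ran from 0.0251 to 0.126 with 1 library left out, being above 0.05 without WT replicate 2 or 3 or KO replicate 2 or 3. No podocyte marker was at 0 in any library. The part of these markers in the Col4a3 and Col4a4 values was not tested.

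**Figure D5:**
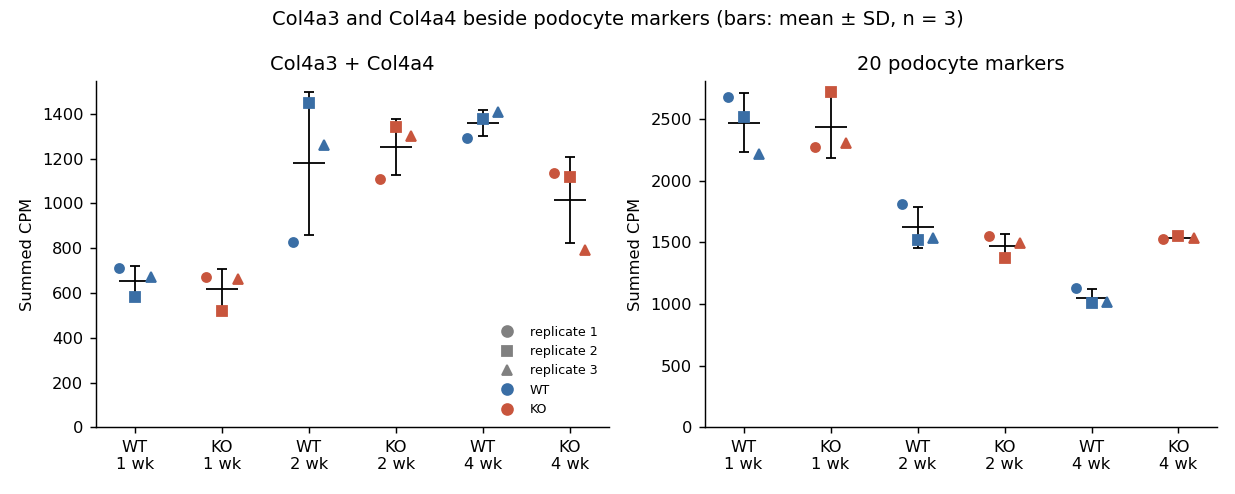
Summed CPM of Col4a3 and Col4a4 (left) and of 20 podocyte markers (right), on y axes from 0, by genotype and age (x axis); points are libraries and bars are the mean ± SD of 3. At 4 weeks the KO libraries lie below WT on the left and, at 1530 to 1554 CPM, above WT at 1008 to 1129 CPM on the right.

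Markers of other kidney cells are set here against all genes tested. From 1 to 4 weeks 30.5% of all genes rose and 31.8% fell in WT, and 28.4% rose and 28.7% fell in KO. For KO against WT at 4 weeks 1.51% of all genes rose and 1.72% fell. Of 10 proximal tubule markers 10 rose from 1 to 4 weeks in WT and in KO, and of 12 markers of the thick limb, distal tubule and collecting duct 6 rose and 2 fell in WT and 7 rose and 3 fell in KO. Of 15 mesangial markers 12 fell in WT and 11 in KO, of 18 endothelial markers 11 and 8 (with 1 and 3 that rose), and of 12 interstitial fibroblast markers 11 and 10. All 8 proliferation markers fell in both. At 4 weeks KO against WT, 3 mesangial markers rose, 2 endothelial and 4 fibroblast markers rose, 1 smooth muscle marker of 11 rose, 1 marker of the thick limb, distal tubule and collecting duct rose (Cldn16, of its tight junctions, adjusted p = 0.0485) and 2 proximal tubule markers fell. With only the 4-week libraries in the fit 1 fibroblast marker was called of all these, and without WT replicate 2 or WT replicate 3 it was 2 fibroblast markers. With sex as a covariate 2 mesangial, 2 endothelial, 2 smooth muscle and 2 fibroblast markers rose, and 1 proximal tubule marker fell. Cldn16 was then not called (adjusted p = 0.0964), nor was it with any 1 library of that age left out (0.0568 to 0.193). The 3 mesangial markers that rose were Rgs5, Mcam and Serpine2. Whether the 15 listed markers are particular to mesangial cells was not tested. The summed mesangial markers were 507 to 522 CPM in WT and 538, 761 and 622 in KO replicates 1, 2 and 3 at 4 weeks. KO replicate 2 was highest, as for Col4a1 and Col4a2. It was also highest of that age in summed endothelial, smooth muscle and interstitial fibroblast markers, at 1308, 812 and 1023 CPM. The part of these cell types in the collagen values was not tested.

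Genes that help make, bind and break down type IV collagen are set here against all genes tested, of which 30.5% rose and 31.8% fell in WT from 1 to 4 weeks and 28.4% rose and 28.7% fell in KO. The scaling by library totals moved those counts toward falls, as given above. Of 20 genes of chain modification, folding and cross-linking, 10 fell and 4 rose from 1 to 4 weeks in WT and the same numbers in KO, with medians of -0.33 and -0.28. Pxdn, the peroxidasin that forms the sulfilimine cross-link of type IV collagen, fell from 304.5 ± 27.1 to 74.2 ± 3.59 CPM in WT (-2.04 ± 0.11, adjusted p = 9.01e-10). Tmem38b, an ion channel of the endoplasmic reticulum needed for collagen processing, rose from 13.6 ± 0.138 to 42.8 ± 3.93 CPM (1.66 ± 0.10, adjusted p = 2.80e-09). Between KO and WT at 4 weeks 0 of the 20 were called by edgeR, with 9 at an unadjusted p under 0.05 (17.1% of all genes) and Colgalt2, which adds galactose to collagen, closest (0.41 ± 0.11, adjusted p = 0.0543).

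Of 10 receptors 5 fell and 0 rose from 1 to 4 weeks in WT, and 4 fell in KO. The integrin gene Itgb1 fell from 677 ± 13.4 to 427 ± 19.5 CPM in WT, and Itga1, its partner in a collagen-binding integrin, from 276 ± 19.6 to 166 ± 14.7. At 4 weeks 0 of the 10 receptors were called between KO and WT by edgeR, with 1 at an unadjusted p under 0.05, where 17.1% of all genes were. All 10 had a positive log2 fold change there, with a median of 0.20 against 0.00 over all genes. With 1 library of that age left out the median ran from 0.11 to 0.27, being 0.11 without KO replicate 2. That library had the highest summed receptor level of the age, at 1369 CPM.

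Of 12 tested genes of degradation 7 fell and 2 rose in WT from 1 to 4 weeks, and 6 fell and 3 rose in KO. The gelatinase gene Mmp2 fell from 179 ± 21.7 to 5.03 ± 0.644 CPM and Mmp14, which encodes a membrane-bound activator of it, from 127 ± 12.1 to 10.1 ± 1.05. Timp3, an inhibitor of such proteases that is bound to the matrix, rose from 647 ± 43.9 to 2468 ± 259. At 4 weeks Mmp14 and Mmp2 rose in KO against WT (1.16 ± 0.22, adjusted p = 0.0116, and 1.24 ± 0.31, adjusted p = 0.0378), and Timp3 fell (-0.73 ± 0.13, adjusted p = 0.00921). KO levels were 22.5 ± 7.36, 11.98 ± 6.69 and 1483 ± 210 CPM for Mmp14, Mmp2 and Timp3. With only the 4-week libraries in the fit none of the 3 was called (adjusted p = 0.132, 0.200 and 0.110). With sex as a covariate Mmp2 was not called (adjusted p = 0.0532). Leaving out 1 library of that age, Mmp14 was not called without WT replicate 2 or KO replicate 3 (adjusted p = 0.0711 and 0.0588), Timp3 was not called without WT replicate 3 (0.0523), and Mmp2 was called only without KO replicate 1 (0.00239), with 0.0681 to 0.154 for the others.

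Of 29 other basement membrane genes 25 fell and 2 rose from 1 to 4 weeks in WT, with a median of -2.02 against -0.04 over all genes, and 24 fell and 2 rose in KO. Hspg2, the core protein of perlecan, fell from 717 ± 69.5 to 163 ± 6.45 CPM in WT, and the laminin chain genes Lamc1 and Lamb1 from 677 ± 72.3 to 116 ± 7.50 and from 667 ± 66.5 to 192 ± 15.0. Between KO and WT at 4 weeks Sparc, a collagen-binding matrix protein, rose (0.83 ± 0.16, adjusted p = 0.0113) and Fras1, of the Fraser complex, fell (-0.71 ± 0.13, adjusted p = 0.00980). Neither was called with only the 4-week libraries in the fit (adjusted p = 0.146 and 0.134), without WT replicate 2 (0.0671 and 0.0569) or without WT replicate 3 (0.0511 and 0.0557). The lists also held nephron progenitor markers, of which 4 of 7 fell and 1 rose in WT from 1 to 4 weeks and 3 fell and 1 rose in KO. Of 11 smooth muscle markers 8 fell in WT (median -1.40) and 3 in KO (median -0.40). Of 16 markers of tissue outside the kidney 10 were tested, of which 1 fell in WT, where 1 library of 1 week stood apart, and 3 fell and 1 rose in KO.

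The genes whose levels were most like those of the chains differed between the pairs. Over 18 libraries and 13238 genes compared, the highest Pearson r of log2 CPM with the mean of Col4a1 and Col4a2 was that of Map4k4 (0.995), followed by Insyn1, Hspg2, Adgrl3 and Zcchc24, down to 0.989. With the mean of Col4a3 and Col4a4 it was that of Bst1 (0.919), followed by Sorl1, Gid4, Osbp and Fam83h, down to 0.894. Hoxb9 (0.974), Hif1a, Cbx6, Igf1 and Parm1 were most like Col4a5, and Tns3 (0.970), Phactr1, Cbx6, Pde8b and Orai2 most like Col4a6. Cbx6 was the only gene named for more than 1 pattern. These likenesses run mostly along age and are given with no p.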

How the data were processed

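RNA of mouse kidney was sequenced in 18 libraries, which the labels and the design text place in 6 groups of 3. The authors deposited, per the file headers, 1 estimated count and 1 FPKM value for each gene and library. Between 6.86% and 8.44% of a library's counts were not whole, and counts were rounded. Tools named in the submitters' processing notes are fastp, Bowtie2, HISAT2 2.1.0, StringTie 1.3.1 and RSEM, with no role or order. A genome build is not named in the sources used here.

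From the counts, all 18 libraries were fitted in 1 model of 6 group means with edgeR 4.0.16 in R 4.3.3 (quasi-likelihood F test, TMM scaling, expression filter by group, 12 residual degrees of freedom). Benjamini-Hochberg adjustment was made over 14774 genes, and a gene was called under 0.05. Log2 CPM had a prior count of 2. Ratios of FPKM within libraries were tested by exact permutation, with 8000 arrangements for genotype and 400 for a step in age. On simulated counts for KO against WT at 4 weeks (14577 genes), edgeR recovered 68.0% of 100 genes changed by a log2 of 1 and 87.8% of 98 changed by 2, with 3 false calls. Apart from those changes, each simulated gene had 1 mean and 1 spread for all groups. The simulation thus held no change with age and no wider spread in KO at 4 weeks, and its figures need not hold for the real libraries.

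The alternatives were DESeq2 1.42.0, limma 3.58.1 on log2(FPKM + 1) and log2(FPKM + 0.1) for genes with a mean FPKM of at least 0.1, upper-quartile and library-total scaling, no filter, the replicate number as a block within age, sex as a covariate, fits on the libraries compared alone, leaving out each library in turn and, for the ratios, sums, single chains, counts and a pseudocount of 0.1. Leaving out both 2-week libraries numbered 1, and the alternatives for listed genes at 4 weeks, were chosen after seeing the data, as was the naming of Cyp21a1. The members and the 14 gene lists were chosen with earlier results of these data known. Named are the 6 chains, Ecm1, up to 4 genes of each list with the smallest p for KO against WT at 4 weeks and up to 4 for 1 to 4 weeks in WT, and the 5 genes most like each pattern among those with a mean of at least 1 CPM and no provisional name.

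Whether replicate numbers pair the libraries was checked by the correlation, across genes, of each library's deviation from its group mean. Same-numbered libraries had 0.68, 0.32 and 0.46 at 2 weeks, where the numbers were taken to pair the libraries, -0.04, 0.18 and 0.18 at 1 week, and 0.07, 0.16 and 0.01 at 4 weeks, where they were not. Libraries of different number ran from -0.56 to 0.35 at 2 weeks. WT replicate 2 was there closer to KO replicate 3 (0.35) than to KO replicate 2 (0.32), so the number did not single out its partner.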

Additional observations from a re-analysis of the deposited data

How the results depend on the processing

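Counts of called chains stayed within 1.5 times the main value under 102 of 104 settings other than leaving out 1 library, and under all 90 that left 1 out. The exceptions were the replicate block, which called 1 chain (Col4a4, -0.44, adjusted p = 0.0459) for KO against WT at 4 weeks in place of 0, and sex as a covariate, with 2 from 1 to 2 weeks in KO; the block also called Col4a5 from 1 to 2 weeks in both genotypes and Col4a4 from 1 to 4 weeks in KO (0.38, adjusted p = 0.0132), and changed no other call. The cause was not tested.

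Signs turned in changes that were not called. For KO against WT they were, with sex as a covariate, -0.0033 for Col4a2 and -0.021 for Col4a3 at 2 weeks and 0.044 for Col4a3 at 1 week. Without both 2-week libraries numbered 1 they were -0.0072, -0.065, -0.0029 and -0.017 for Col4a2, Col4a3, Col4a4 and Col4a5 at 2 weeks, -0.098 for Col4a4 from 2 to 4 weeks in WT, and 0.11 for the ratio of Col4a6 to Col4a5 from 1 to 2 weeks. With library totals they were -0.18 and -0.42 for Col4a3 and Col4a4 from 2 to 4 weeks in WT, -0.23 for Col4a4 from 1 to 4 weeks in KO, 0.077 for Col4a5 in KO against WT at 4 weeks and -0.0082 for Col4a6 from 1 to 2 weeks in WT. In limma on log2(FPKM + 1) the same 5 were -0.11, -0.37, -0.22, 0.072 and -0.052, with 0.016 for Col4a5 in KO against WT at 1 week, and on log2(FPKM + 0.1) they were -0.11, -0.37, -0.22, 0.075, -0.076 and 0.017, with -0.0033 for Col4a6 from 1 to 2 weeks in KO. With upper-quartile scaling they were -0.024 for Col4a4 from 2 to 4 weeks in WT and 0.0054 for Col4a5 at 4 weeks. The ratio of Col4a5 to Col4a1 and Col4a2, KO against WT, was -0.018 from counts and -0.013 from the even chains alone. The cause was not tested, except that each scaling moved the median of all genes.

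Leaving out 1 library, KO against WT ran from -0.025 to 0.12 at 2 weeks and -0.036 to 0.25 at 4 weeks for Col4a1, -0.074 to 0.070 at 2 weeks for Col4a2, -0.14 to 0.04 and -0.14 to 0.28 at 1 and 2 weeks for Col4a3, -0.17 to 0.020 and -0.082 to 0.24 for Col4a4, -0.10 to 0.11 and -0.11 to 0.11 for Col4a5, and -0.32 to 0.28, -0.44 to 0.37 and -0.084 to 0.40 at 1, 2 and 4 weeks for Col4a6. From 2 to 4 weeks Col4a3 in KO ran from -0.27 to 0.0084 and Col4a4 in WT from -0.098 to 0.23, and from 1 to 2 weeks Col4a6 ran from -0.092 to 0.53 in WT and -0.19 to 0.59 in KO. For KO against WT, the ratio of Col4a5 to Col4a1 and Col4a2 ran from -0.035 to 0.085 and that of Col4a6 to Col4a5 from -0.085 to 0.13. The rise of the ratio of Col4a3 and Col4a4 to Col4a1 and Col4a2 from 1 to 4 weeks ran from 2.73 to 2.91. Col4a6 had 62 to 120 counts at 4 weeks, which limits its precision there.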
